A study of Mus musculus with 12 samples.

Results

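The comparison set 4 libraries of mouse small intestine deficient in both Apc and Eif3h (called Apc Eif3h here) against 4 wild-type (WT) libraries. They were picked by their sample titles and make up 8 of the 12 libraries of the series. All 17394 genes that passed a filter on low counts were compared, of 55421 identifiers in the deposited count table. The Apc Eif3h animals carried VilCreER together with Apc fl/fl and Eif3h fl/fl, and their label gives day 4. The WT label gives day 7 and names neither a Cre nor a floxed allele. VilCreER is a tamoxifen-inducible Cre recombinase driven by the villin promoter, which is active in the gut epithelium and not in stroma, muscle, nerve or blood cells. The protocol describes 2 tamoxifen injections of 80 mg/kg given 24 hours apart and harvest after 7 days for every sample, at odds with the day 4 label. Genotype and day cannot be told apart in this comparison. Another group, VilCreER Apcfl/fl without an Eif3h allele (called Apc, day 4), is used below only to test whether Apc Eif3h differed from Apc deficiency alone, and it shares the fit but no library with Apc Eif3h. The animals were 3 males and 1 female in WT, the same in Apc, and 4 males in Apc Eif3h. The age of the animals is not given in the sources used here. The labels do not say whether each library came from its own animal, and the p-values cover the spread among libraries only.

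APC is a scaffold of the cytoplasmic complex that marks beta-catenin for destruction. Without it, beta-catenin enters the nucleus and, with TCF and LEF factors, switches on Wnt target genes, which in the intestine hold crypt cells in a dividing, stem-like state. eIF3 is the multi-subunit factor that carries the initiator tRNA complex and the small ribosomal subunit to mRNA, and eIF3h is one of its subunits. Many mRNAs of the translation machinery begin with a cytosine followed by a run of pyrimidines (the 5′ terminal oligopyrimidine, or TOP, motif), by which the mTORC1 pathway controls their translation and storage. ATF4 is a transcription factor whose own mRNA is controlled at initiation and which leads the integrated stress response, a programme of amino acid supply and tRNA charging.

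Libraries held 14221414 to 21298301 counts in Apc Eif3h and 13915889 to 14589963 in WT, and the Apc totals were 10483112 to 18621953. Levels are TMM-scaled CPM (counts scaled to a common library size) for replicates 1 to 4 in that order. Principal component 1 (51.1% of the variance) put WT at -75.9 to -63.7 and Apc Eif3h at 13.5 to 54.9. Apc Eif3h replicate 3 lay nearest to WT at 13.5, and Apc Eif3h replicate 2 stood apart on the second component (11.1% of the variance) at 61.7, against -1.71 to 11.2 in the other 3. Markers of small intestinal epithelium were present in every library. Vil1, a brush border protein whose promoter drives the Cre, was at 2284, 2575, 2936 and 3074 CPM in WT and 1381, 1129, 1902 and 1414 CPM in Apc Eif3h. Fabp2, the intestinal fatty acid binding protein, was at 2739, 3663, 5286 and 3976 CPM in WT and 4806, 2658, 3258 and 2044 CPM in Apc Eif3h, and these levels overlapped. Both were taken as defining markers of the tissue, outside the rule for named genes.

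Eif3h RNA was reduced in every Apc Eif3h library. Eif3h (ENSMUSG00000022312, GRCm38 chr15:51786558-51865523, minus strand) was at 142, 126, 134 and 135 CPM in WT, at 168, 164, 158 and 175 CPM in Apc and at 28.3, 43.1, 54.6 and 25.9 CPM in Apc Eif3h. The highest Apc Eif3h value, that of replicate 3, was below the lowest of the other groups. The log2 fold change against WT was -1.82 ± 0.19 (adjusted p = 1.1e-05), a level 3.54-fold lower, and against Apc it was -2.13 ± 0.19 (adjusted p = 0.000405), by edgeR's quasi-likelihood test with Benjamini-Hochberg adjustment across the table. Log2 fold changes are given ± 1 SE here and below. In bulk tissue, fewer cells that hold an RNA and less of that RNA per cell cannot be told apart. Apc RNA (ENSMUSG00000005871, GRCm38 chr18:34220924-34322552) was not lower in Apc Eif3h, at 87.4, 98.3, 97.6 and 93.3 CPM in WT and 105, 100.2, 92.8 and 121 CPM in Apc Eif3h (log2 change 0.16, adjusted p = 0.142). Counts summed over the whole gene do not show a deleted exon, so this level does not check the Apc label.

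**Figure D1:**
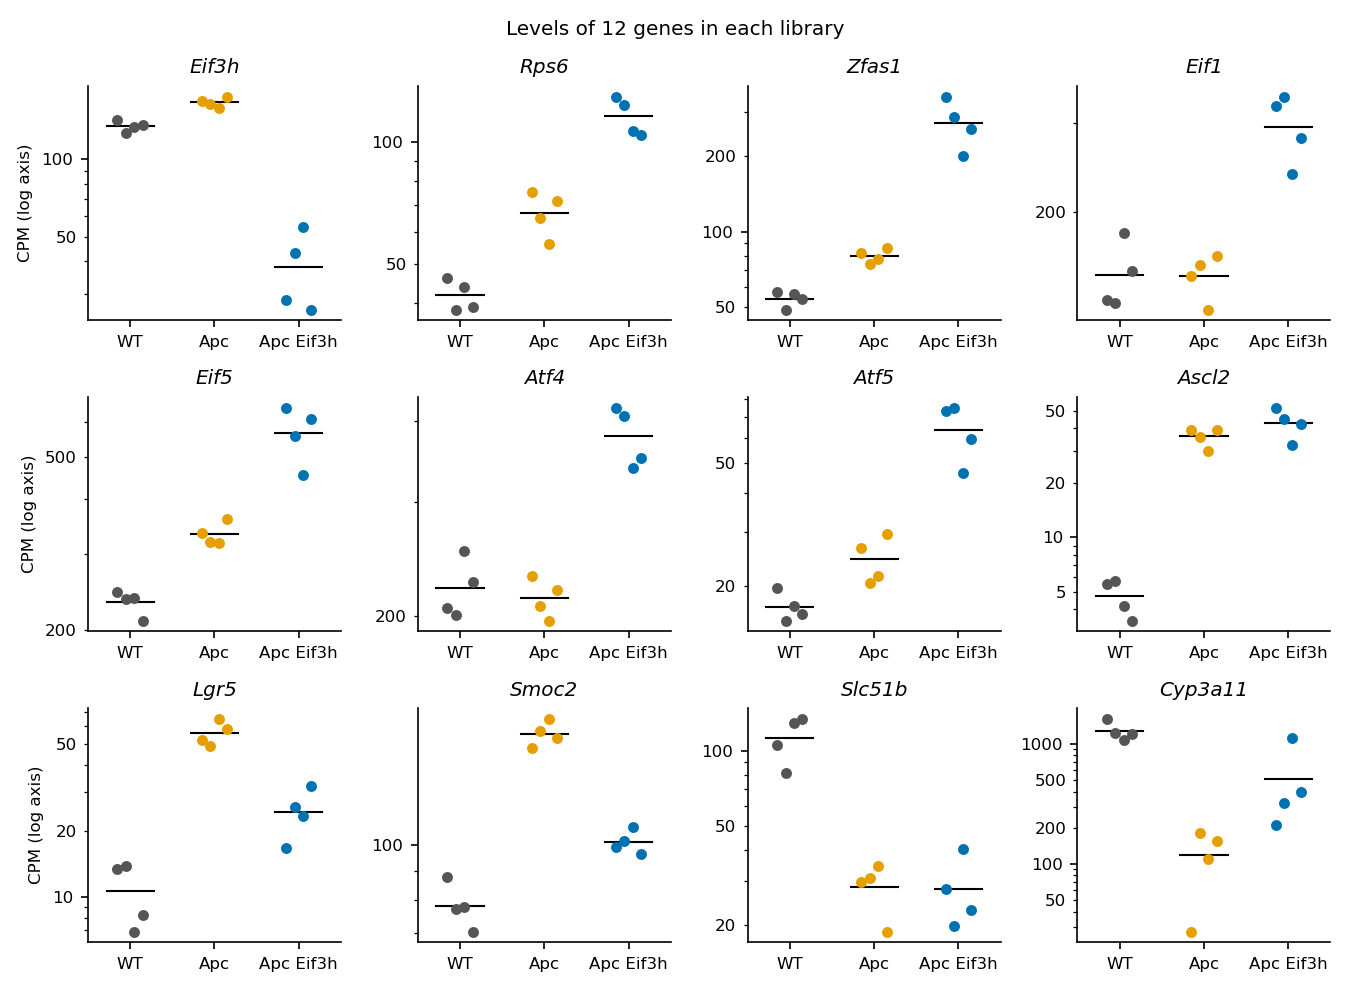
Levels of 12 genes in CPM (log axis) in each library of WT, Apc and Apc Eif3h, with points for single libraries and a line at each group's mean. Eif3h is lowest in the 4 Apc Eif3h libraries, Rps6, Zfas1, Eif1, Eif5, Atf4 and Atf5 are highest there, and Lgr5 and Smoc2 lie between WT and Apc.

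Against WT, 10059 of the 17394 genes (57.8%) were called at an adjusted p below 0.05 in Apc Eif3h, 5177 higher (29.8%) and 4882 lower (28.1%). Of these, 2053 were more than 2-fold higher and 1487 more than 2-fold lower, and over every gene tested the median log2 fold change was -0.03. The libraries of the groups did not overlap for 8289 genes (47.7%). With library totals in place of TMM scaling the calls were 6605 higher and 3175 lower, and the median over all genes moved to 0.17. Against Apc, 743 genes were called higher (4.27%) and 483 lower (2.78%), and these counts ranged from 242 to 1152 and from 164 to 615 when 1 library was left out. They were lowest without Apc replicate 3 and highest without Apc Eif3h replicate 3. Leaving out any library of these groups other than Apc Eif3h replicate 3 lowered the total from 1226 to between 406 and 781, so the counts against Apc given for lists below carry a range. Gene lists are described by how many of their tested members were called in each direction and by their median log2 fold change, to be read against these shares and medians.

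The other subunits of eIF3 moved opposite to Eif3h in the comparison with WT, and a rise was also present with Apc deficiency alone. Over the 14 eIF3 genes, Eif3h included, the median log2 fold change of Apc Eif3h was 0.839 against WT and 0.215 against Apc. That of Apc against WT was 0.678. All 13 other eIF3 genes tested, among them the paralogous pair Eif3j1 and Eif3j2, rose against WT, and the libraries did not overlap for any of the 13. Eif3b was at 133, 117, 117 and 119 CPM in WT and 309.6, 286, 229 and 275 CPM in Apc Eif3h (log2 change 1.18 ± 0.11, adjusted p = 7.06e-06). Eif3g, which touches the scanning ribosome, was at 69.7, 57.1, 67 and 63.7 CPM in WT and 172, 161, 127 and 145 CPM in Apc Eif3h (log2 change 1.23 ± 0.11, adjusted p = 5.46e-06). The smallest rise was that of Eif3k, from 99.9, 78.8, 104 and 99.4 CPM to 145, 155, 130.1 and 126 CPM, with a log2 fold change of 0.54. Against Apc, Eif3g (log2 change 0.47 ± 0.11, adjusted p = 0.0255) and Eif3f (log2 change 0.41 ± 0.11, adjusted p = 0.0404) were higher, and the other 11 were not called. This count of 2 ranged from 0 to 5 over the alternatives: it was 0 or 1 with any of the 4 Apc libraries or Apc Eif3h replicate 1 or 2 left out, 0 with library totals, and 5 without Apc Eif3h replicate 3.

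Genes for the proteins of the cytosolic ribosome rose as a body. All 79 tested, 47 of the large and 32 of the small subunit, were higher in Apc Eif3h than in WT, with log2 fold changes from 0.41 (Fau) to 1.93 (Rpl12) and a median of 1.26, and the libraries did not overlap for 78 of them, Rps29 being the exception. Rps6 encodes a small-subunit protein phosphorylated downstream of mTORC1. Its level was 46.1, 38.5, 43.9 and 39.1 CPM in WT, 75.1, 64.9, 55.9 and 71.4 CPM in Apc and 129, 124, 106 and 104 CPM in Apc Eif3h (log2 fold change against WT 1.47 ± 0.11, adjusted p = 3.86e-06). Rpl12, of the ribosomal stalk base, was at 77.3, 64.6, 64.9 and 57.1 CPM in WT, 148, 142, 136 and 152 CPM in Apc and 309, 280.2, 182 and 233 CPM in Apc Eif3h (log2 fold change against WT 1.93 ± 0.15, adjusted p = 3.94e-06). Rpl35, at the peptide exit tunnel, was at 39.4, 40.0, 49.6 and 47 CPM in WT, 62.1, 63.7, 51.5 and 72.9 CPM in Apc and 146, 145, 91.3 and 118 CPM in Apc Eif3h (log2 fold change against WT 1.51 ± 0.15, adjusted p = 1.01e-05). In all 3, every Apc Eif3h library exceeded every Apc library, and Apc Eif3h replicate 3 was the lowest or next to lowest of its group. Ribosomal protein genes took 2.95% ± 0.532 of all counts in Apc Eif3h, against 1.07% ± 0.0621 in WT and 1.95% ± 0.179 in Apc (SD, n = 4 each).

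The rise went beyond that seen with Apc deficiency alone. Against Apc, 40 of 47 large-subunit and 29 of 32 small-subunit genes were called higher and the other 10 not called, with a median log2 fold change of 0.61 over the 79. Rps6 differed from Apc by 0.80 ± 0.11 (adjusted p = 0.00266) and Rpl12 by 0.80 ± 0.14 (adjusted p = 0.00819) on the log2 scale. With 1 library left out, the counts ranged from 20 of 47 and 14 of 32 without Apc replicate 3 to 45 and 30 without Apc Eif3h replicate 3, and none of the 79 was called lower. Ribosomal protein genes have many near-identical pseudogenes, and how multi-mapped reads were counted is not given in the sources used here, so single members are less certain than the body of them.

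**Figure D2:**
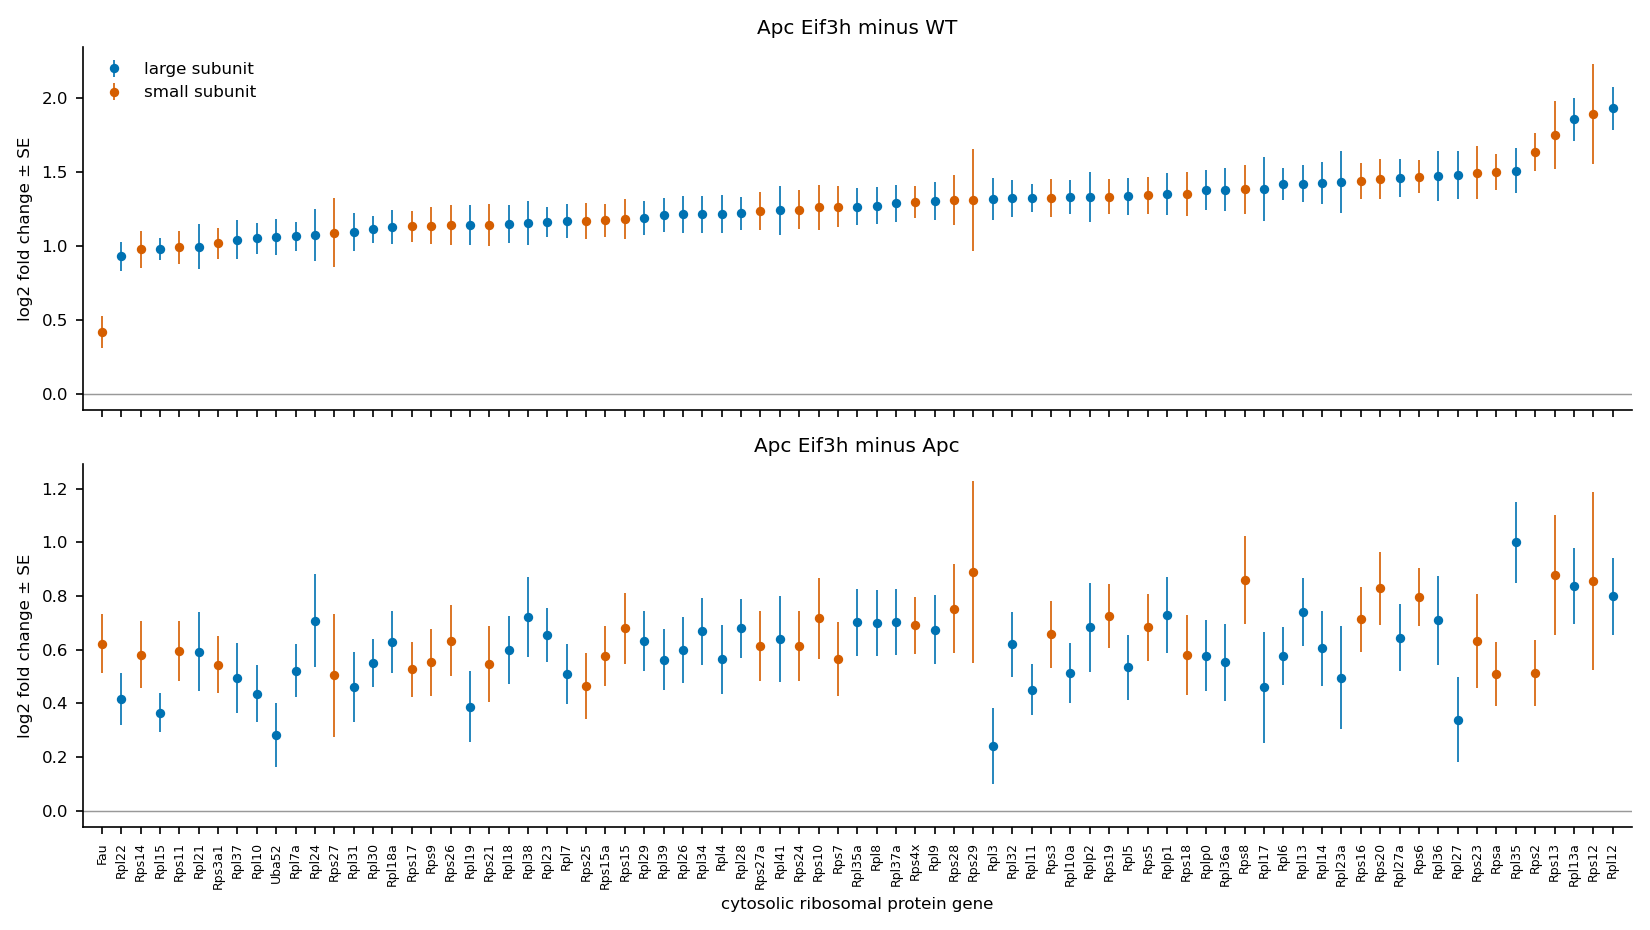
Log2 fold changes (points, with bars of 1 SE either side) of 79 cytosolic ribosomal protein genes, ordered by their change against WT, in Apc Eif3h minus WT above and Apc Eif3h minus Apc below, with large-subunit genes in blue and small-subunit genes in orange. All points are above 0 in both panels, from 0.41 to 1.93 in the upper one, and every gene except Fau has a lower value in the second, whose axis has its own scale.

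The start sites of some of these genes are shown to describe where a pyrimidine run stood near the annotated start. RefSeq promoter windows (GRCm38.p6) were at hand for 58 of the 79 ribosomal protein genes and for 11707 of the 17394 genes tested. A run of at least 8 pyrimidines (C or T, on the gene's own strand) that overlapped the 10 bases on either side of the annotated start was found in 28 of the 58 (48.3%), against 2009 of the 11707 (17.2%). Below, each line gives 60 bases, 30 before and 30 from the start on, 5′ to 3′, and capitals mark the run where there is one. Rps6, Rpl35, Rpl28 and the snoRNA host gene Snhg1 had a run.
Rps6 (chr4:86857338-86857397, minus strand): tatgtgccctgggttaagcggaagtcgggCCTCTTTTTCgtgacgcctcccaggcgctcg
Rpl35 (chr2:39005102-39005161, minus strand): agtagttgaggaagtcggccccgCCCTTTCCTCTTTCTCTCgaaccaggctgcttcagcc
Rpl28 (chr7:4792935-4792994, plus strand): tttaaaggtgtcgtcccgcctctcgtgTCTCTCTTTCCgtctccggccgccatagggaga
Snhg1 (chr19:8723457-8723516, plus strand): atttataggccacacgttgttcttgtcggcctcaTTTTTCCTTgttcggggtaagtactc
Rpl12, which rose most of the 79, and Rps4x had no such run in their windows, nor did the host gene Zfas1 or the initiation factor gene Eif1, both described below. Rpl12 fell just short of the 8 required, with a run of 7 pyrimidines beginning at base 2 from the start. The longest run in Rps4x was of 3.
Rpl12 (chr2:32961682-32961741, plus strand): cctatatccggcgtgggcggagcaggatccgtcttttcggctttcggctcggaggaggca
Rps4x (chrX:102189362-102189421, minus strand): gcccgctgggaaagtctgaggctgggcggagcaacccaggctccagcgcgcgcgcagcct
Zfas1 (chr2:167062904-167062963, plus strand): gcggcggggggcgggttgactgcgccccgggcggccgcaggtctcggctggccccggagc
Eif1 (chr11:100319919-100319978, plus strand): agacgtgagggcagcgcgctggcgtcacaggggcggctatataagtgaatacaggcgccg
An annotated start that is off by a few bases can hide or create a run, and a match is a description of these letters only. The rule asks for no leading cytosine and sets its own length, so it does not tell which of these mRNAs carry the TOP motif.

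Genes that build ribosomes had a higher median rise than the ribosomal proteins themselves. All 45 tested were higher than in WT, with log2 fold changes from 0.59 (Ubtf) to 2.41 (Rrp1b) and a median of 1.79. Gar1, a protein of the H/ACA particles that make pseudouridine in rRNA, was at 17.6, 16.7, 19.3 and 14.7 CPM in WT and 77.5, 68.4, 56.1 and 67.4 CPM in Apc Eif3h (log2 change 1.98 ± 0.14, adjusted p = 3.28e-06). Fbl, the rRNA methyltransferase fibrillarin, was at 20.4, 16.3, 20.9 and 18 CPM in WT and 77.1, 63.2, 52.2 and 66.8 CPM in Apc Eif3h (log2 change 1.78 ± 0.13, adjusted p = 3.86e-06). Nop2 encodes a methyltransferase of large-subunit rRNA. Its level was 28.2, 25.7, 26 and 24.3 CPM in WT, 75.8, 57.9, 62.4 and 77.5 CPM in Apc and 123, 105, 74.1 and 105 CPM in Apc Eif3h (log2 fold change against WT 1.97 ± 0.15, adjusted p = 3.86e-06). No WT library reached an Apc Eif3h library in any of the 45. Against Apc, 3 of the 45 were called higher, Polr1c (an RNA polymerase I and III subunit, 0.52), Rrp12 (0.67) and Nop2 (0.57) on the log2 scale. That count was 0 without Apc replicate 3, 1 without Apc replicate 2 or any of Apc Eif3h replicates 1, 2 and 4, and 24 without Apc Eif3h replicate 3.

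The pattern at the start sites was not the same in this class. A pyrimidine run by the rule above was found in 1 of 40 biogenesis genes with a window (2.5%), that of Nop2. The E-box CACGTG, the letters bound by MYC and its partners, is a palindrome, so both strands read alike. It was found within the 300-base window in 8 of the 40 (20%), against 11.2% of the 11707 tested genes with a window. The window of Nop2 held one, and 60 bases around its start with the run in capitals are followed by 60 bases further upstream with the E-box in capitals.
Nop2 (chr6:125131853-125131912, plus strand): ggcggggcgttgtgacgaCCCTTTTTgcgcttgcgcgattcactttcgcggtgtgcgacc
Nop2 (chr6:125131796-125131855, plus strand): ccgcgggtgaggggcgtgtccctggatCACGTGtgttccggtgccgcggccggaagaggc
For comparison, the E-box was found in 6 of the 58 ribosomal protein genes with a window (10.3%) and in 2 of 30 genes of DNA replication and mitosis (6.67%). It was found in 3 of 10 eIF3 genes (30%), 4 of 16 Wnt genes (25%) and 4 of 20 genes of polyamine and nucleotide synthesis (20%). The share in biogenesis genes was thus not particular to them.

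Long noncoding RNAs that host small nucleolar RNAs in their introns mostly rose against WT. By the naming rule, Zfas1 stood first of the 8 highest against Apc among genes called in both contrasts. It was the only host gene among those 8. Zfas1 (ENSMUSG00000074578, GRCm38 chr2:167062934-167065862, plus strand) was at 57.2, 48.7, 56.2 and 53.6 CPM in WT, 82.2, 74.1, 77.9 and 85.8 CPM in Apc and 346, 288, 201 and 257 CPM in Apc Eif3h. The lowest Apc Eif3h library, replicate 3, was more than 2-fold above the highest Apc library, and the log2 fold change was 2.34 ± 0.14 (adjusted p = 1.42e-06) against WT and 1.77 ± 0.14 (adjusted p = 0.00021) against Apc. Gas5 was at 123, 105, 121 and 105 CPM in WT, 248, 219, 219 and 245 CPM in Apc and 491, 482, 312 and 419 CPM in Apc Eif3h, 0.87 above Apc on the log2 scale (adjusted p = 0.00407). Snhg6 was at 13.7, 10.7, 12.8 and 12.7 CPM in WT, 28, 25.7, 28 and 29.6 CPM in Apc and 54.6, 51, 36.7 and 47.1 CPM in Apc Eif3h, 0.77 above Apc (adjusted p = 0.0047). Of 14 host genes tested of 16 listed, 13 rose against WT (median log2 fold change 1.80) and Snhg18 was lower at -0.30, a call lost in 8 of 16 alternatives. Against Apc, 6 of the 14 were higher, and Snhg18 was lower in a call lost in 6 of 12 alternatives. Whether the counting used strand is not given in the sources used here, so reads of an overlapping antisense gene cannot be told apart from those of the host gene.

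Initiation and elongation factors outside eIF3 rose with them. Of 35 other initiation factor genes 30 were higher, Eif4e3 was lower and 4 were not called, with a median log2 fold change of 0.83. Eif1, which guards start codon choice, was at 134, 132, 182 and 153 CPM in WT, 149.6, 157, 128 and 164 CPM in Apc and 324, 337, 238 and 279 CPM in Apc Eif3h. WT and Apc overlapped in Eif1 and every Apc Eif3h library was above both, with a log2 fold change of 0.97 ± 0.13 (adjusted p = 7.36e-05) against WT and 0.98 ± 0.13 (adjusted p = 0.00266) against Apc. Eif5 encodes the GTPase activator that acts with eIF1 at the start codon. Its level was 245, 237, 237 and 210.5 CPM in WT, 334, 319.5, 317 and 359 CPM in Apc and 647, 559, 454 and 609 CPM in Apc Eif3h (0.77 ± 0.11, adjusted p = 0.00304 against Apc). Eif4e3 encodes a variant cap-binding protein. Its level was 15.9, 15.2, 14.5 and 16.3 CPM in WT, 20.5, 17, 18.3 and 20.3 CPM in Apc and 12.1, 13.4, 13.4 and 11.9 CPM in Apc Eif3h (log2 change -0.29 against WT, -0.58 against Apc). Its call against WT was lost in 6 of 16 alternatives, whereas that against Apc held in all 12. Against Apc 6 of the 35 were higher and 2 lower, and the 6 ranged from 3 without Apc replicate 3 to 12 without Apc Eif3h replicate 3.

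Among 16 genes listed as elongation factors or TOP mRNAs, 15 were higher than in WT (median log2 fold change 1.20) and Eef2k, the kinase that inhibits elongation factor 2, was not called. A pyrimidine run by the rule above was found in 4 of the 14 with a window (28.6%). Eef1b2 encodes a nucleotide exchange factor for eEF1A. Its level was 389.6, 346, 431 and 391 CPM in WT, 661, 596, 551 and 661 CPM in Apc and 1358, 1254, 946 and 1105 CPM in Apc Eif3h (log2 change 1.58 ± 0.13, adjusted p = 4.24e-06). Tpt1 encodes a growth-linked protein translated from a TOP mRNA. Its level was 422, 347, 495 and 384 CPM in WT, 419, 461, 414 and 472 CPM in Apc and 711, 739.8, 633 and 669 CPM in Apc Eif3h (log2 change 0.74 ± 0.11, adjusted p = 0.000167). In Tpt1 the Apc libraries lay within the WT range and the Apc Eif3h libraries above both. Eef1b2 (0.92 ± 0.13, adjusted p = 0.00295) and Tpt1 (0.64 ± 0.11, adjusted p = 0.0079) were among 7 of the 16 called higher than in Apc on the log2 scale, a count that ranged from 3 without Apc replicate 3 to 9 without Apc Eif3h replicate 3.

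Within the integrated stress response, Atf4 and Atf5 set Apc Eif3h apart from both other groups. Atf4 (ENSMUSG00000042406, GRCm38 chr15:80255184-80257541, plus strand) was at 205, 201, 252 and 225 CPM in WT, 230.5, 207, 196 and 219 CPM in Apc and 419, 408, 339 and 350.1 CPM in Apc Eif3h, 0.78 ± 0.10 (adjusted p = 5.08e-05) above WT and 0.83 ± 0.10 (adjusted p = 0.00172) above Apc on the log2 scale. Atf5 encodes a related factor also controlled at initiation. Its level was 19.8, 15.5, 17.3 and 16.3 CPM in WT, 26.6, 20.6, 21.5 and 29.4 CPM in Apc and 73.3, 75, 46.3 and 59.6 CPM in Apc Eif3h, 1.88 ± 0.17 (adjusted p = 4.9e-06) above WT and 1.37 ± 0.16 (adjusted p = 0.00167) above Apc. No Apc Eif3h library overlapped the other groups in either gene. Both calls against Apc held in all 12 alternatives.

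Enzymes of serine and one-carbon supply and tRNA charging were high against WT. Phgdh, the first enzyme of serine synthesis, was at 5.42, 3.85, 3.16 and 3.13 CPM in WT and 37.8, 36, 21.2 and 38.1 CPM in Apc Eif3h, with replicate 3 the lowest of its group (log2 change 3.09 ± 0.26, adjusted p = 4.47e-06). Mthfd2, of mitochondrial folate metabolism, was at 15.8, 15.2, 12.6 and 14.4 CPM in WT and 93.2, 78, 48.9 and 79.2 CPM in Apc Eif3h (log2 change 2.37 ± 0.20, adjusted p = 4.61e-06), and it was called above Apc too (0.76, lost in 6 of 12 alternatives). Slc7a5, the large neutral amino acid transporter, was at 9.76, 7.69, 8.65 and 7.33 CPM in WT and 69.8, 53.8, 33.5 and 56.6 CPM in Apc Eif3h (log2 change 2.68 ± 0.21, adjusted p = 3.95e-06). Gars, glycyl-tRNA synthetase, was at 79.9, 80.3, 95.2 and 91.2 CPM in WT and 341, 279.6, 269.7 and 302 CPM in Apc Eif3h (log2 change 1.78 ± 0.09, adjusted p = 9.44e-07). The list as a whole had 21 of 36 members higher and 5 lower (median 0.62). The 5 lower ones were Cth (-0.98), Atf3 (-0.83), Slc3a2 (-0.81), Trib3 (-0.81) and Vldlr (-0.69). All 5 are listed as effectors of this response, and Trib3 and Atf3 are among those usually induced by ATF4 or its partners. Against Apc 6 were higher and 2 lower, and the 6 ranged from 4 without Apc replicate 2 to 13 without Apc Eif3h replicate 3.

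The neighbouring stress programmes did not move the same way. Of 26 genes of the unfolded protein response in the endoplasmic reticulum 12 were lower than in WT (median log2 fold change -0.35). None was called higher by edgeR or DESeq2, and 0 had an unadjusted p below 0.05 in that direction. In the alternatives, 3 were called higher without WT replicate 1, 2 with library totals and 1 with the replicate block. Xbp1, its transcription factor, was at 373, 285, 317 and 305 CPM in WT and 179.7, 174, 214 and 165 CPM in Apc Eif3h (log2 change -0.80 ± 0.12, adjusted p = 0.000139). Edem1, which sends misfolded glycoproteins to degradation, was at 271, 215, 261 and 245 CPM in WT and 130.4, 127, 157 and 118 CPM in Apc Eif3h (log2 change -0.90 ± 0.11, adjusted p = 3.08e-05). Hspa5, the chaperone BiP and a marker of this response named outside the rule, did not differ detectably (log2 change 0.01, SE 0.15).

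Targets of p53 were split. Of 27 tested, 13 were higher than in WT and 6 lower, and with library totals as the scale 3 were lower. Bax, a pore-forming inducer of apoptosis, was at 38.5, 36.8, 40.2 and 37.6 CPM in WT and 84.1, 91.6, 65.2 and 70.5 CPM in Apc Eif3h (log2 change 1.02 ± 0.12, adjusted p = 2.13e-05). Eda2r encodes a death receptor of the TNF receptor family. Its level was 2.87, 1.28, 1.16 and 1.4 CPM in WT, 4.1, 1.67, 1.03 and 5.55 CPM in Apc and 8.89, 9.71, 6.02 and 9.2 CPM in Apc Eif3h (log2 change 2.33 ± 0.45, adjusted p = 0.000939 against WT and 1.47 ± 0.41, adjusted p = 0.0488 against Apc), and the call against Apc was lost in 7 of 12 alternatives. Cdkn1a, the cell cycle inhibitor p21, was at 196, 204, 275 and 274 CPM in WT and 215, 209, 234 and 211 CPM in Apc Eif3h and was not called (log2 change -0.13, adjusted p = 0.398). Fas, another death receptor, was lower, at 38.4, 29.1, 42.1 and 40.0 CPM in WT and 11.3, 14.4, 20.7 and 11.8 CPM in Apc Eif3h (log2 change -1.36 ± 0.19, adjusted p = 9.66e-05). Several that were higher, such as Gtse1 (2.34) and Psrc1 (2.28), are also genes of dividing cells. Against Apc 6 of the 27, Eda2r, Bax and Cdkn1a among them, were higher, a count that ran from 0 without Apc replicate 2 or 3 to 8 without Apc Eif3h replicate 3. The call against Apc was lost in 10 of 12 alternatives for Cdkn1a and in 5 for Bax.

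**Figure D3:**
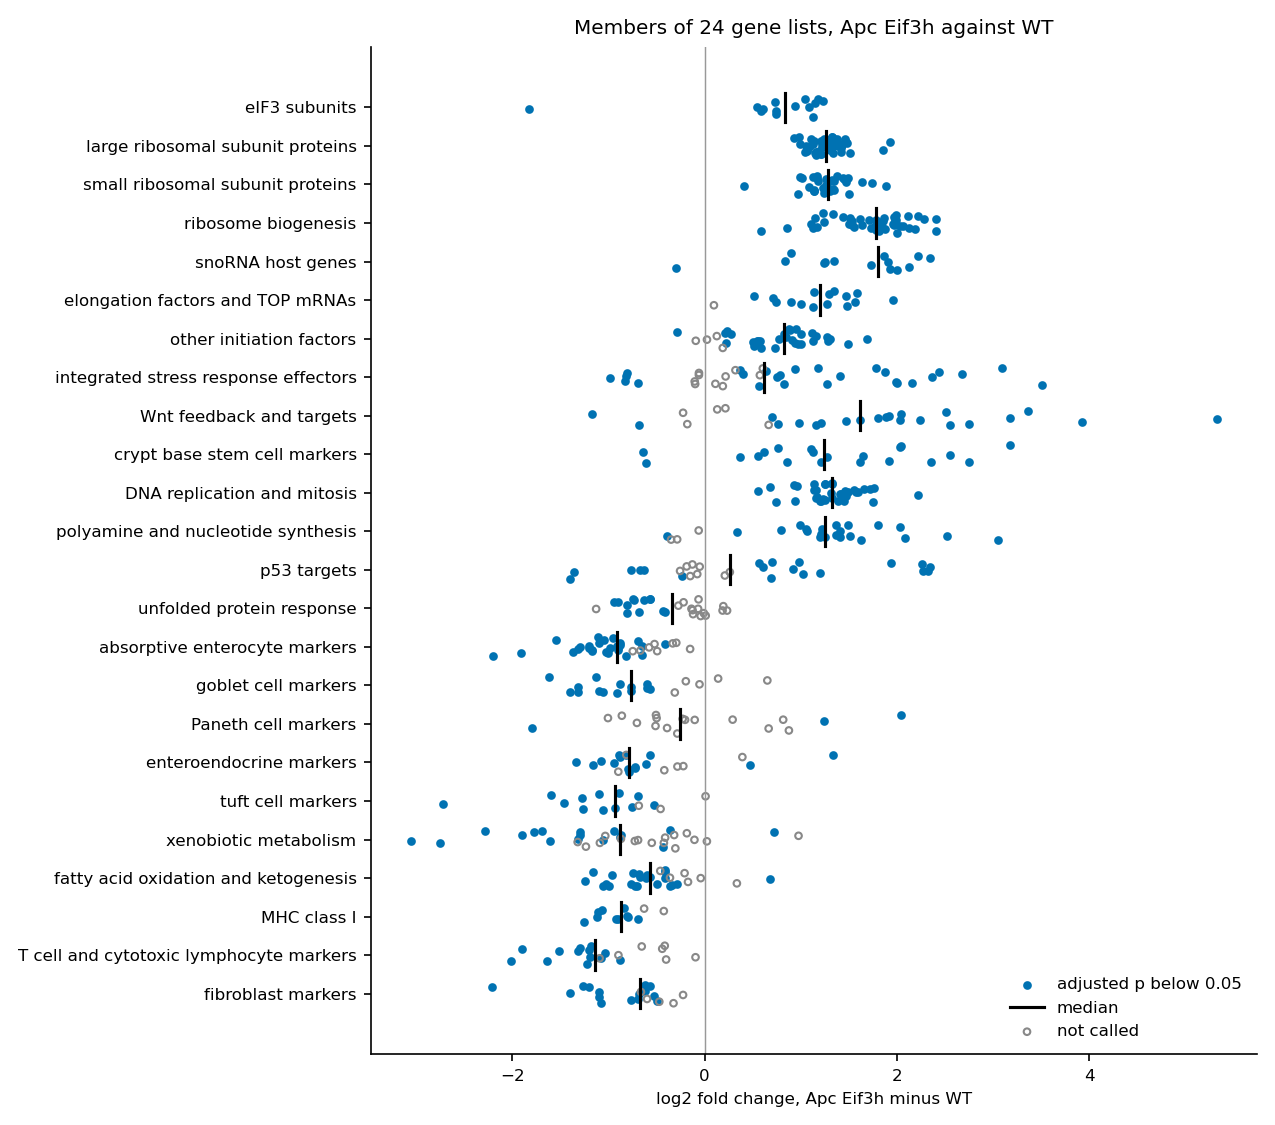
Log2 fold changes of Apc Eif3h minus WT for the tested members of 24 gene lists, with filled points for members called at an adjusted p below 0.05, open points for the others and a bar at each list's median. Medians run from 1.80 in snoRNA host genes to -1.14 in T cell and cytotoxic lymphocyte markers, and Eif3h is the single eIF3 point below 0.

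Wnt targets were high in Apc Eif3h. Of 27 feedback and target genes 20 were higher than in WT and 2 lower, with a median log2 fold change of 1.62. Axin2 encodes a feedback inhibitor that marks beta-catenin activity. Its level was 61.4, 80.3, 78.2 and 54.3 CPM in WT, 368, 342, 395 and 326 CPM in Apc and 482, 335, 335 and 454 CPM in Apc Eif3h (log2 change 2.55 ± 0.16, adjusted p = 2.19e-06). Ascl2 encodes a stem cell transcription factor. Its level was 5.5, 5.77, 4.16 and 3.46 CPM in WT, 39.1, 36, 29.9 and 39 CPM in Apc and 51.9, 45.2, 32.2 and 42.3 CPM in Apc Eif3h (log2 change 3.18 ± 0.19, adjusted p = 1.33e-06). Tcf7, which encodes the TCF1 partner of beta-catenin, was at 9.61, 9.61, 6.65 and 8.98 CPM in WT and 43.6, 61.5, 38.7 and 54.7 CPM in Apc Eif3h (log2 change 2.51 ± 0.16, adjusted p = 2.19e-06). In each the Apc Eif3h libraries were all above WT and overlapped Apc. Dkk2 (-1.17) and Dkk3 (-0.69), of the Dickkopf family of secreted Wnt modulators, were the 2 lower ones.

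Some of these genes rose less than with Apc deficiency alone, and the stem cell marker Lgr5 was one. Lgr5 (ENSMUSG00000020140, GRCm38 chr10:115450311-115587780, minus strand), the R-spondin receptor of crypt base stem cells, was at 13.3, 13.8, 6.9 and 8.24 CPM in WT, 52, 48.7, 65 and 58 CPM in Apc and 16.7, 25.6, 23.5 and 32 CPM in Apc Eif3h. Every Apc Eif3h library was above every WT library and below every Apc library, with a log2 fold change of 1.21 ± 0.23 (adjusted p = 0.000862) against WT and -1.19 ± 0.22 (adjusted p = 0.00974) against Apc. Smoc2 encodes a secreted matrix protein of stem cells. Its level was 87.6, 77, 77.8 and 70.4 CPM in WT, 148, 158, 166 and 154 CPM in Apc and 98.9, 102, 107 and 96.1 CPM in Apc Eif3h, -0.63 ± 0.08 (adjusted p = 0.00171) against Apc. Tnfrsf19 encodes the TROY receptor. Its level was 8.06, 9.9, 6.24 and 3.79 CPM in WT, 69.5, 65.1, 84.3 and 43.2 CPM in Apc and 24.6, 18.1, 39 and 25 CPM in Apc Eif3h, -1.30 ± 0.28 (adjusted p = 0.0181) against Apc. Nkd1 encodes a feedback inhibitor acting on Dishevelled. Its level was 16.3, 15.2, 14.5 and 14.3 CPM in WT, 51, 68.2, 71.9 and 47.6 CPM in Apc and 21.5, 21.7, 49 and 27 CPM in Apc Eif3h, -1.002 ± 0.23 (adjusted p = 0.0254) against Apc, a call lost in 5 of 12 alternatives. Zfp703 was at 78.3, 80.5, 87.4 and 74.9 CPM in WT, 120.0, 121, 116 and 118 CPM in Apc and 96.9, 75.4, 93.3 and 86.1 CPM in Apc Eif3h, and it was not called against WT (0.13).

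Of 20 crypt base stem cell markers 18 were higher than in WT (median log2 fold change 1.24), and 8 of the 20 were lower than in Apc. The other 2 were lower than WT, among them Fstl1 (-0.65), whose call was lost in 6 of 16 alternatives. That count of 2 fell to 0 or 1 in 10 of the 16, and to 0 with library totals or without WT replicate 2 or Apc Eif3h replicate 1 or 4. The 8 lower than Apc ranged from 3 without Apc replicate 3 or Apc Eif3h replicate 4 to 10 with DESeq2. The 4 Wnt genes lower than in Apc, Lgr5, Nkd1, Tnfrsf19 and Zfp703, ranged in number from 2 without Apc replicate 3 or Apc Eif3h replicate 4 to 8 without Apc Eif3h replicate 3. Of the genes named here, Lgr5, Smoc2 and Zfp703 kept the call against Apc in all 12 alternatives.

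Genes of proliferation and of the building blocks for it were raised against WT. All 38 genes of DNA replication and mitosis were higher than in WT, from 0.55 (Ccnb2) to 2.22 (Ccne1) with a median of 1.33 on the log2 scale, and 0 of 38 were called against Apc by edgeR or DESeq2 (1 higher and 5 lower at an unadjusted p below 0.05). Tyms, thymidylate synthase, was at 24.2, 22.7, 17.6 and 18.4 CPM in WT, 60.8, 50.9, 47.8 and 56.1 CPM in Apc and 64, 50.1, 50.6 and 52.4 CPM in Apc Eif3h (log2 change 1.39 ± 0.13, adjusted p = 5.42e-06). Mcm2 encodes a subunit of the replicative helicase. Its level was 30.1, 35.7, 28.7 and 22.3 CPM in WT, 123, 86.2, 91.5 and 118 CPM in Apc and 109, 86.9, 77.1 and 95.6 CPM in Apc Eif3h (log2 change 1.66 ± 0.16, adjusted p = 8.02e-06). Among 25 genes of polyamine and nucleotide synthesis 21 were higher and Sat1, which breaks down polyamines, was lower (median 1.25). Srm, spermidine synthase, was at 12.7, 11.3, 9.48 and 8.9 CPM in WT, 56.9, 38.9, 33.8 and 47.4 CPM in Apc and 116, 99.1, 50.6 and 87.4 CPM in Apc Eif3h (log2 change 3.06 ± 0.25, adjusted p = 4.21e-06), and was the 1 member called above Apc (0.996, adjusted p = 0.0226), in a call lost in 4 of 12 alternatives. The count of 1 rose to 3 with DESeq2 and to 6 without Apc Eif3h replicate 3.

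The MYC family moved in both directions. Myc encodes the Wnt-driven growth regulator. Its level was 23.3, 22, 17.9 and 14.5 CPM in WT, 107, 68.6, 98.8 and 103 CPM in Apc and 117, 91.6, 63.4 and 95.1 CPM in Apc Eif3h (log2 change 2.24 ± 0.21, adjusted p = 5.95e-06). Mycl was at 15.8, 21.1, 18.8 and 13.1 CPM in WT, 96.5, 115, 118 and 83.7 CPM in Apc and 37.7, 32.4, 71.5 and 36.5 CPM in Apc Eif3h, above WT in every library and below Apc in every library (log2 change 1.37 ± 0.24, adjusted p = 0.000439 against WT and -1.21 ± 0.23, adjusted p = 0.0107 against Apc). Mxd1, a MAX partner that opposes MYC and marks mature cells, was at 701, 677, 986 and 1061 CPM in WT and 269.9, 197, 372 and 229.9 CPM in Apc Eif3h (log2 change -1.68 ± 0.20, adjusted p = 2.56e-05). In all, 3 of 14 network genes were higher and 7 lower.

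The largest rises against WT were in genes that are nearly silent in wild-type intestine. Gulo, a vitamin C synthesis enzyme known from liver, had 3 counts in all WT libraries and 382 in Apc Eif3h, a ratio of 93.5 at equal depth with an exact 95% interval of 31.7 to 455 for counting error only. Cited1, a transcriptional coactivator, had 6 counts in WT and 514 in Apc Eif3h, a ratio of 62.9 with an interval of 28.7 to 172. Msx1, a homeobox factor, was at 0.31, 0.712, 0.915 and 0.165 CPM in WT and 17.2, 16, 35.6 and 17.4 CPM in Apc Eif3h (log2 change 5.33 ± 0.39, adjusted p = 3.68e-06). Etv4, an ETS factor induced by FGF and MAPK signalling, was at 1.16, 1.5, 1.33 and 1.24 CPM in WT and 43.4, 48.4, 28.2 and 54.2 CPM in Apc Eif3h (log2 change 5.05 ± 0.28, adjusted p = 9.44e-07). Pla2g5, a secreted phospholipase, was at 1.55, 1.5, 2.25 and 1.15 CPM in WT and 91.4, 59.9, 43.4 and 61.1 CPM in Apc Eif3h (log2 change 5.31 ± 0.29, adjusted p = 9.44e-07). All 5 had Apc levels that overlapped those of Apc Eif3h and were not called against Apc, though Cited1 (-1.34) and Msx1 (-0.90) were called lower than Apc without Apc Eif3h replicate 3, and Gulo with the replicate block (-1.05) or without Apc replicate 2 (-1.29) or Apc Eif3h replicate 2 (-1.30).

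Epop and Phlda2 were the members of that set of 15 called above Apc. Epop (ENSMUSG00000043439, GRCm38 chr11:97627389-97629702, minus strand), an elongin-binding partner of Polycomb repressive complex 2, was at 0.542, 0.285, 0.416 and 0.577 CPM in WT, 9.17, 7.00, 6.04 and 8.72 CPM in Apc and 34.7, 31.8, 9.31 and 22.9 CPM in Apc Eif3h (log2 change 5.75 ± 0.47, adjusted p = 4.24e-06 against WT and 1.68 ± 0.32, adjusted p = 0.0107 against Apc). Replicate 3 of Apc Eif3h was close to the highest Apc library and the other 3 well above it. Phlda2 encodes an imprinted restrainer of placental growth. Its level was 0.387, 0.142, 0.499 and 0.33 CPM in WT, 4.19, 2.19, 2.83 and 4.41 CPM in Apc and 7.35, 8.29, 4.28 and 9.64 CPM in Apc Eif3h (1.14 ± 0.27, adjusted p = 0.0289 against Apc, a call lost in 5 of 12 alternatives).

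Iron and bile acid transport genes stood among the extremes too. Cybrd1 encodes a duodenal iron reductase. Its level was 4.88, 7.05, 5.99 and 8.65 CPM in WT, 62.9, 96, 51.8 and 418 CPM in Apc and 63.8, 288, 117 and 257 CPM in Apc Eif3h (log2 change 4.77 ± 0.74, adjusted p = 0.000192). Slc40a1 encodes the iron exporter ferroportin. Its level was 29.1, 21.6, 15.9 and 24.2 CPM in WT, 201, 167, 119.6 and 426 CPM in Apc and 77.2, 263, 127 and 264 CPM in Apc Eif3h (log2 change 3.01 ± 0.46, adjusted p = 0.000158). Slc10a2, the ileal importer of bile acids, was at 0.465, 0.855, 0.582 and 0.577 CPM in WT and 17.1, 5.14, 2.79 and 4.91 CPM in Apc Eif3h (log2 change 3.55 ± 0.59, adjusted p = 0.000322), with replicate 1 far above the other 3. The basolateral exporter subunits went the other way. Slc51b was at 105, 81.5, 129.5 and 135 CPM in WT and 27.8, 19.8, 40.3 and 22.9 CPM in Apc Eif3h (log2 change -2.02 ± 0.24, adjusted p = 2.9e-05), and Slc51a fell by 1.47 on the log2 scale. Nr1h4, the bile acid receptor FXR, was at 43.5, 34.8, 46.1 and 40.5 CPM in WT and 16.3, 14.7, 23.8 and 17.2 CPM in Apc Eif3h (log2 change -1.19 ± 0.17, adjusted p = 8.77e-05). The part of the intestine taken is not given in the sources used here, and Slc40a1 and Cybrd1 are proximal and Slc10a2 a distal marker. Other markers of both regions were lower than in WT. Of 7 proximal markers tested 2 were higher, Slc40a1 and Cybrd1, and 2 lower, Gata4 and Lct, the lower count falling to 0 with library totals. Of 8 distal markers 1 was higher, Slc10a2, and 3 lower, Gcg, Amn and Muc3.

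**Figure D4:**
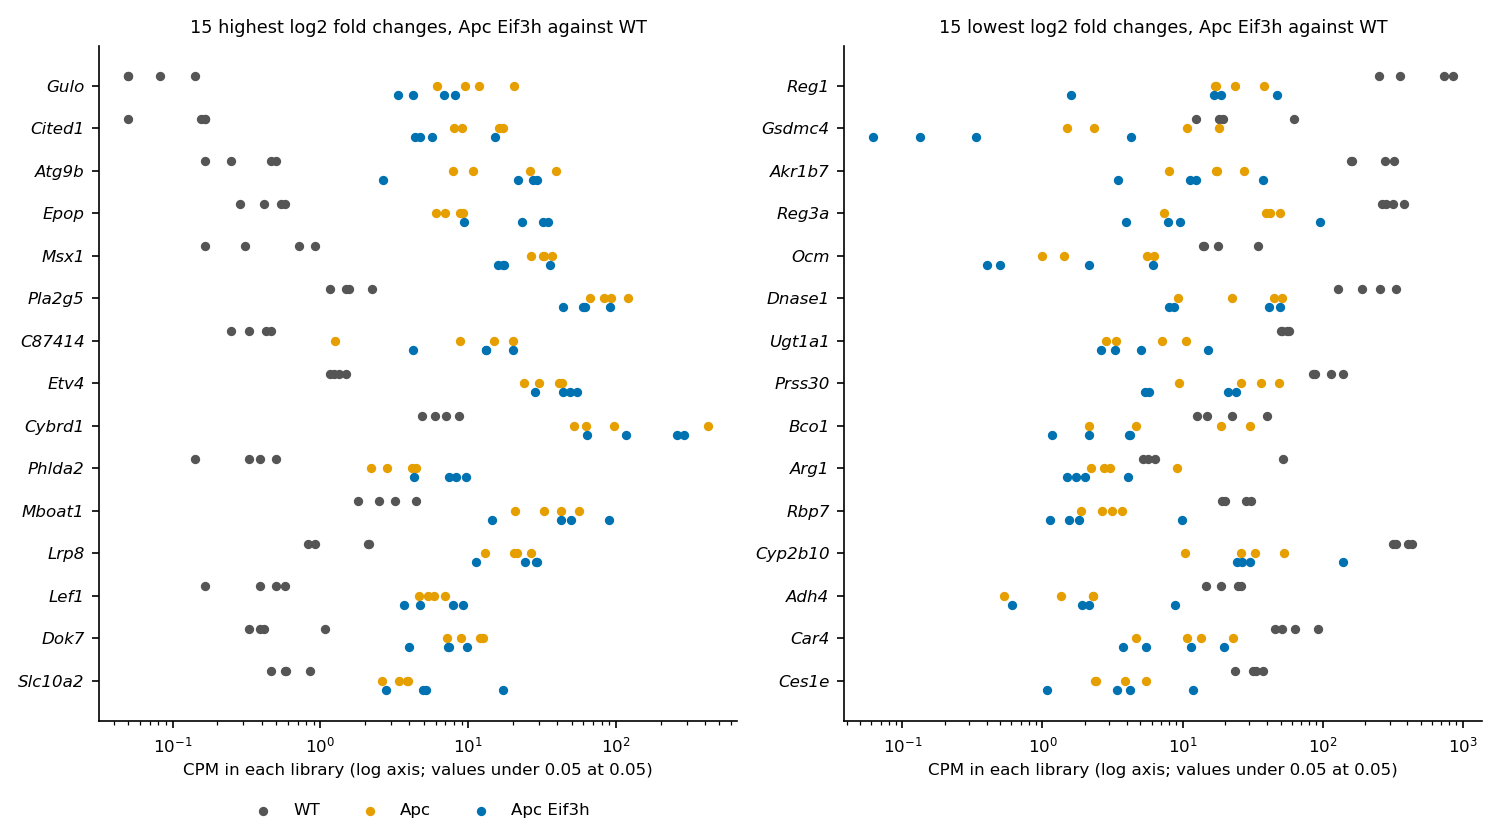
CPM in each library (log axis, values under 0.05 drawn at 0.05) of the 15 highest and 15 lowest log2 fold changes of Apc Eif3h against WT, with WT in grey, Apc in orange and Apc Eif3h in blue. Only genes whose Apc Eif3h and WT libraries did not overlap were eligible, so no Apc Eif3h point reaches the WT points of its gene. In every gene except Epop the Apc Eif3h points overlap the Apc points.

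Examples of the 15 lowest log2 fold changes follow. Reg1, a secreted lectin of the Reg family, was at 850.4, 354, 254 and 734 CPM in WT and 1.6, 18.9, 47 and 16.9 CPM in Apc Eif3h (log2 change -4.70 ± 0.74, adjusted p = 0.000197). Gsdmc4, a gasdermin, was at 19.3, 18.1, 62 and 12.5 CPM in WT and 0.334, 0.0619, 4.28 and 0.134 CPM in Apc Eif3h (log2 change -4.59 ± 1.03, adjusted p = 0.00233), with 3 of the Apc Eif3h libraries at 0.334 CPM or below. Akr1b7, an aldose reductase, was at 278, 159, 162 and 323 CPM in WT and 3.48, 11.2, 37.5 and 12.5 CPM in Apc Eif3h (log2 change -3.83 ± 0.59, adjusted p = 0.000168). Dnase1 was at 128, 192, 331 and 258 CPM in WT and 41.6, 7.98, 49.5 and 8.66 CPM in Apc Eif3h (log2 change -3.08 ± 0.65, adjusted p = 0.00159). In all 15 of the lowest genes the Apc Eif3h libraries overlapped those of Apc and none was called against Apc, but without Apc Eif3h replicate 3 Gsdmc4 (-5.55) and Reg3a (-2.25) were called lower than Apc, as was Gsdmc4 with the replicate block (-3.01) and Bco1 with DESeq2 (-2.24) or without Apc replicate 1 (-2.58).

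Among 19 antimicrobial and inflammatory genes tested of 26 listed, 13 were lower than in WT (median log2 fold change -1.90), and the antibacterial lectins Reg3b and Reg3g were lower than in Apc as well. Reg3b was at 1064, 1039, 2412 and 3124 CPM in WT, 13764, 924, 6471 and 821 CPM in Apc and 533, 162, 299.9 and 400.1 CPM in Apc Eif3h, with log2 changes of -2.45 ± 0.81 (adjusted p = 0.0199) against WT and -3.98 ± 0.86 (adjusted p = 0.0186) against Apc. The Apc libraries spread widely, and the Apc Eif3h libraries were below all of WT and of Apc. The call against WT was lost in 5 of 16 alternatives for Reg3g and without WT replicate 4 for Reg3b. Against Apc the count of 2 (Reg3b and Reg3g) was 0 without Apc replicate 3 or Apc Eif3h replicate 2, 1 without Apc replicate 1 or Apc Eif3h replicate 4, and 3 without Apc Eif3h replicate 3. Pigr, which carries IgA across the epithelium, was at 5468, 4102, 4245 and 7013 CPM in WT and 719, 1341, 1947 and 1561 CPM in Apc Eif3h (log2 change -1.90 ± 0.31, adjusted p = 0.000257). Ccl25, a chemokine that draws T cells to the gut, was at 669, 622, 859 and 731 CPM in WT and 195, 231, 446 and 228 CPM in Apc Eif3h (log2 change -1.39 ± 0.25, adjusted p = 0.000605). Members of the Reg and gasdermin C families are near-identical, so the split of reads among them is uncertain.

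Markers of mature epithelial cells were low in Apc Eif3h. Of 35 absorptive enterocyte markers 27 were lower than in WT and 8 not called, with a median log2 fold change of -0.91. Ace, a brush border peptidase, was at 1184, 2012, 2128 and 2281 CPM in WT and 319.8, 290.4, 714 and 323 CPM in Apc Eif3h (log2 change -2.21 ± 0.39, adjusted p = 0.000474). Cd36, a fatty acid transporter, was at 168, 184, 151 and 128 CPM in WT and 36.9, 48.2, 86.4 and 45 CPM in Apc Eif3h (log2 change -1.54 ± 0.23, adjusted p = 0.000137). Ada, adenosine deaminase, was at 591, 638, 1143 and 1678 CPM in WT and 352, 202, 278 and 246 CPM in Apc Eif3h (log2 change -1.91 ± 0.34, adjusted p = 0.000476). Apc Eif3h replicate 3 was the highest of its group in Ace and Cd36, and the summed level of the 35 markers was 57170 CPM in it and 35480 to 41030 CPM in the other 3, against 67320 to 91230 CPM in WT. Against Apc edgeR called 0 of the 35 and DESeq2 1, higher, with 1 higher and 1 lower at an unadjusted p below 0.05 in edgeR. In each list from here on where edgeR called 0 genes higher than WT, DESeq2 also called 0, and edgeR had 0 at an unadjusted p below 0.05, apart from 1 macrophage and 1 neuronal marker.

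Secretory lineages were lower as well, apart from Paneth cells. Goblet cell markers were lower in 14 of 19 (median -0.77), with Muc13, a membrane mucin, at 2704, 2154, 3606 and 3705 CPM in WT and 1326, 844, 1671 and 1033 CPM in Apc Eif3h. Tuft cell markers were lower in 12 of 15 (median -0.94), with Alox5, a leukotriene enzyme, at 5.81, 4.27, 4.49 and 4.53 CPM in WT and 1.07, 1.67, 1.74 and 1.74 CPM in Apc Eif3h. Enteroendocrine markers were lower in 13 of 21 (median -0.79), with Gip, an incretin hormone gene, at 105, 82.5, 89.3 and 106 CPM in WT and 31.3, 41.7, 60.1 and 37.7 CPM in Apc Eif3h. Neurog3, the factor of endocrine precursors, was higher, at 2.17, 1.85, 1.41 and 1.32 CPM in WT and 4.55, 3.16, 5.21 and 4.29 CPM in Apc Eif3h (log2 change 1.34 ± 0.21, adjusted p = 0.000226), as was Insm1 (0.47), whose call was lost in 10 of 16 alternatives.

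Paneth cell markers did not shift together. Fgfrl1 and Pla2g2a were higher and Mptx1 lower of 18 tested, and the median was -0.26. The call of Mptx1 was lost in 4 of 16 alternatives. Pla2g2a, a secreted antibacterial phospholipase, was at 11.3, 18.9, 22 and 4.61 CPM in WT and 95.5, 44.1, 55.1 and 39.9 CPM in Apc Eif3h (log2 change 2.04 ± 0.41, adjusted p = 0.00105). Fgfrl1 encodes an FGF receptor without a kinase domain. Its level was 11.6, 13, 8.15 and 9.23 CPM in WT, 41.8, 42, 46.6 and 41.7 CPM in Apc and 26.5, 21.8, 28.5 and 22.6 CPM in Apc Eif3h, lower than in Apc (-0.79 ± 0.13, adjusted p = 0.00702) in all 12 alternatives. The summed level of the list spread from 1285 to 7351 CPM in WT and from 1338 to 7326 CPM in Apc Eif3h, and without Apc Eif3h replicate 1 the number lower than in WT rose from 1 to 5 and the number lower than in Apc from 2, Fgfrl1 and Mptx1, to 8. Lyz1, the lysozyme that defines these cells and named outside the rule, was at 1371, 2491, 1792 and 319 CPM in WT and 2159, 474, 704 and 328 CPM in Apc Eif3h.

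Transcription factors of intestinal identity were lower in part. Of 20, 10 were lower than in WT, 5 with library totals or without Apc Eif3h replicate 2. Hnf4g, a nuclear receptor of enterocytes, was at 215, 275, 256 and 302 CPM in WT and 131, 97.1, 179.7 and 166 CPM in Apc Eif3h (log2 change -0.87 ± 0.19, adjusted p = 0.00197), and Maf, a factor of the villus, fell by 1.04. Isx encodes a homeobox repressor of vitamin A uptake. Its level was 71, 75.6, 88.4 and 73.9 CPM in WT, 57.3, 48.7, 42.1 and 52 CPM in Apc and 133, 70.5, 104 and 67.6 CPM in Apc Eif3h, higher than in Apc (0.91 ± 0.19, adjusted p = 0.0162; lost without Apc replicate 3) and not called against WT.

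Genes of fat oxidation were lower in 22 of 29 and higher in 1 (median log2 fold change -0.57), Acot1 (0.68), whose call was lost in 5 of 16 alternatives. Eci2 encodes an isomerase of fatty acid oxidation. Its level was 60.4, 61.2, 57.9 and 61 CPM in WT, 49.8, 48.1, 44.8 and 49.98 CPM in Apc and 32.4, 34.6, 44.1 and 34.6 CPM in Apc Eif3h, below both groups (-0.72 ± 0.09, adjusted p = 4.43e-05 against WT and -0.40 ± 0.09, adjusted p = 0.0229 against Apc, the second call lost in 6 of 12 alternatives). Mitochondrially encoded RNAs were lower in 10 of 13 (median -0.59). Nuclear genes of oxidative phosphorylation were lower in 16 of 50 (median -0.21), a share near that of all genes (28.1%). The libraries did not overlap for 1 of the 50. The count of 16 ran from 6 with library totals to 26 without Apc Eif3h replicate 3. Of 25 cholesterol synthesis genes 12 were higher than in WT, 4 lower and 9 not called (median 0.29). Sqle, squalene epoxidase, was at 38.7, 39.3, 47.8 and 41 CPM in WT and 133, 92.4, 72.5 and 102 CPM in Apc Eif3h (log2 change 1.26 ± 0.16, adjusted p = 3.68e-05). Against Apc, Fdft1, squalene synthase, was lower (-0.42 ± 0.08, adjusted p = 0.0107) in all 12 alternatives, at 48.2, 44.6, 43.7 and 52.6 CPM in Apc and 38.1, 35.6, 33.2 and 34 CPM in Apc Eif3h.

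Drug and xenobiotic metabolism was low against WT in 16 of 33 genes and high in 1, Cyp4b1 (median log2 fold change -0.89), a count of lower genes that ran from 11 without Apc Eif3h replicate 4 to 23 without Apc Eif3h replicate 3. Ugt1a1, the bilirubin glucuronosyltransferase, was at 50.1, 57.3, 51 and 55.8 CPM in WT and 5.08, 2.6, 15.1 and 3.3 CPM in Apc Eif3h (log2 change -3.05 ± 0.50, adjusted p = 0.000292). Cyp2b10, a cytochrome P450 induced through the CAR receptor, was at 431, 335, 403 and 317 CPM in WT and 24.3, 26.7, 139.8 and 30.5 CPM in Apc Eif3h (log2 change -2.75 ± 0.58, adjusted p = 0.00157), with replicate 3 highest in its group. Against Apc 5 genes were higher. Cyp3a11 was at 1617, 1230, 1068 and 1198 CPM in WT, 27.2, 180.3, 110.1 and 156 CPM in Apc and 211, 321, 1118 and 397 CPM in Apc Eif3h (2.11 ± 0.56, adjusted p = 0.0403 against Apc), and Ces2c, a carboxylesterase, at 175, 159, 155 and 166 CPM, 38.2, 77.7, 40.8 and 58 CPM and 89.5, 91.1, 180.4 and 131 CPM in the same order (1.19 ± 0.25, adjusted p = 0.0147 against Apc). The call of Cyp3a11 was lost in 8 of 12 alternatives and that of Ces2c without Apc replicate 3. The other 3 were Ugt2b5, Ces1g and Aldh1a1. The count of 5 ran from 0 without Apc replicate 3 to 9 without Apc Eif3h replicate 1. Apc Eif3h replicate 3, the library nearest to WT, had a summed level of 12320 CPM for the 33 genes against 5030 to 7950 CPM in the other 3.

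RNAs of cells that the villin-driven Cre does not reach were lower too. T cell and cytotoxic lymphocyte markers were lower in 13 of 20 (median log2 fold change -1.14), with summed levels of 197 to 631 CPM in WT, 110.5 to 178 CPM in Apc and 121 to 215 CPM in Apc Eif3h. Gzma, a granule protease of these cells, was at 173, 99.6, 67.2 and 217 CPM in WT and 31.4, 32.2, 42.1 and 32 CPM in Apc Eif3h (log2 change -2.02 ± 0.30, adjusted p = 0.000144). Macrophage and neutrophil markers were lower in 13 of 15 tested of 21 listed, with summed levels of 299.7 to 679 CPM in WT and 249 to 351 CPM in Apc Eif3h. Adgre1, the macrophage marker F4/80, was at 27.4, 19.7, 10.5 and 15 CPM in WT and 6.42, 6.74, 6.02 and 7.14 CPM in Apc Eif3h (log2 change -1.46 ± 0.23, adjusted p = 0.000206). No tested marker of the immune and stromal lists was at 0 in any library. The part of shifting cell numbers in the epithelial results above was not tested.

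Stroma followed the same direction. Fibroblast markers were lower in 15 of 20 (7 with library totals), with summed levels of 1517 to 2989 CPM in WT and 1033 to 1345 CPM in Apc Eif3h. Dpt, dermatopontin of the extracellular matrix, was at 61.7, 50.1, 41.2 and 34 CPM in WT and 20.3, 20.1, 17.2 and 13.6 CPM in Apc Eif3h (log2 change -1.40 ± 0.18, adjusted p = 5.31e-05). Smooth muscle markers were lower in 11 of 15 (7 with library totals), with summed levels of 2594 to 4053 CPM in WT and 1823 to 2550 CPM in Apc Eif3h. Endothelial markers were lower in 12 of 15, at 290.0 to 531 CPM summed in WT and 239.7 to 298 CPM in Apc Eif3h. Prox1, the 1 endothelial marker that was higher (1.16), stands in the list of Wnt targets too, and its call was lost in 7 of 16 alternatives. Enteric neuron and glia markers were lower in 13 of 15, at 107 to 128 CPM summed in WT and 52.2 to 69.7 CPM in Apc Eif3h, with Vip, a neuropeptide gene, at 32.9, 44.4, 35.7 and 36.7 CPM and 14.2, 18.2, 21.4 and 14.8 CPM in these groups.

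B cell RNA set Apc Eif3h replicate 2 apart. Cd79a, a signalling chain of the B cell receptor named after its values were seen, was at 13.2, 4.63, 3.83 and 5.19 CPM in WT and 1.87, 83.8, 1.68 and 1.83 CPM in Apc Eif3h, and was not called (log2 change 1.72, adjusted p = 0.193). Replicate 2 was far above every other library, and the other 3 were below all of WT. Of 11 B and plasma cell markers 4 were lower than in WT and 2 higher, among them Sdc1 (1.20), with all libraries, and 9 lower and 1 higher without that library. The plasma cell product Igha was at 15730, 3956, 3817 and 5386 CPM in WT and 1906, 3068, 2198 and 2515 CPM in Apc Eif3h (log2 change -1.58 ± 0.48, adjusted p = 0.0134), with WT replicate 1 far above the others. Antigen presentation genes of class I were lower in 10 of 12 (median -0.87), with B2m, the shared light chain, at 2838, 2152, 2561 and 3342 CPM in WT and 1080, 1170, 1643 and 1104 CPM in Apc Eif3h (log2 change -1.12 ± 0.18, adjusted p = 0.00028). Class II genes were lower in 2 of 7, a share near that of all genes, and a count that ran from 0, without WT replicate 1 or 4 or any of Apc Eif3h replicates 1, 3 and 4, to 7 without Apc Eif3h replicate 2. Interferon-stimulated genes were lower in 13 of 34, from 6 with library totals to 19 without WT replicate 3.

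Among the 16 genes with the largest called differences from Apc, by the same filters and called against WT as well, those not yet described were as follows. Faap24, of the Fanconi anaemia core complex, was at 5.97, 6.55, 6.07 and 7.08 CPM in WT, 11, 7.58, 10.2 and 9.86 CPM in Apc and 27.5, 24.2, 12.3 and 22.8 CPM in Apc Eif3h (1.17 ± 0.21, adjusted p = 0.00804 against Apc). Opn3 encodes an opsin expressed outside the eye. Its level was 3.8, 2.14, 1.83 and 2.55 CPM in WT, 1.96, 2.09, 1.79 and 2.18 CPM in Apc and 3.88, 4.58, 3.91 and 5.04 CPM in Apc Eif3h (1.12 ± 0.21, adjusted p = 0.00945 against Apc). Cfi, complement factor I, was at 3.25, 4.91, 3.99 and 2.8 CPM in WT, 32.8, 16.3, 25.6 and 38.5 CPM in Apc and 6.48, 6.13, 6.08 and 5.31 CPM in Apc Eif3h, far below Apc (-2.24 ± 0.24, adjusted p = 0.00124) and just above WT, where its call (0.67) was lost in 10 of 16 alternatives. Muc4 encodes a membrane mucin. Its level was 53, 36.9, 48.4 and 47.4 CPM in WT, 79.3, 57.6, 92.3 and 84.8 CPM in Apc and 19.3, 17.2, 37.7 and 26.8 CPM in Apc Eif3h (-1.64 ± 0.23, adjusted p = 0.00295 against Apc). Rnase1 encodes a secreted ribonuclease. Its level was 27.3, 33.8, 27.4 and 17.4 CPM in WT, 45.4, 37.8, 48.8 and 34.9 CPM in Apc and 17.6, 11.8, 20.2 and 8.04 CPM in Apc Eif3h (-1.54 ± 0.26, adjusted p = 0.00721 against Apc). In Muc4 and Rnase1 the Apc mean lay above WT and the Apc Eif3h mean below it. Zan (-1.57) and Hpd (-1.55) were lower than in Apc, and Cnnm1 (1.13) and Slc28a1 (1.11) higher, on the log2 scale. These calls were lost in 7 of 12 alternatives for Slc28a1, in 5 for Hpd and, for Cnnm1, without Apc replicate 3. Of the 277 genes that the naming rule gives, 85 were called against Apc, and 35 of those kept the call in all 12 alternatives.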

How the data were processed

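Total RNA of small intestine was made into TruSeq RNA libraries, per the labels. The authors deposited raw counts per gene identifier for 12 libraries in 1 table. Per the submitters' processing notes featureCounts 1.6.4 and HISAT2 2.1.0 were used with the GRCm38 build, besides Trim Galore 0.6.4 and FastQC 0.11.8. The sources used here do not give strand use or the counting of multi-mapped reads. Of 55421 identifiers, 55240 were matched to GENCODE M21 for names and coordinates, and 181, with 0.00226% of counts, were not. The filterByExpr default of edgeR 4.0.16 (R 4.3.3, limma 3.58.1) left 17394 genes. A quasi-likelihood model with TMM scaling and 1 mean per group was fitted to all 12 libraries (9 residual degrees of freedom), with Benjamini-Hochberg adjustment over all genes and a threshold of 0.05. Standard errors (SE) were derived from the F statistic, as the size of the log2 fold change over the root of F. The fit was also run on simulated counts in which few genes changed and all genes had the same spread. That setting differs from these data, so the run does not measure error rates here. Samples were grouped by title. DESeq2 1.42.0 served as an alternative.

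The members, the 45 gene lists (972 symbols, 3 not in the table) and the tests were chosen with earlier results of these data known. Genes were named by a rule: Eif3h, Apc and the eIF3 subunits; the 15 highest and 15 lowest log2 fold changes among called genes with non-overlapping libraries and a mean log2 CPM of at least 1, leaving out predicted models, pseudogenes, antigen receptor segments and sex-linked genes; the 8 highest and 8 lowest against Apc among genes called in both contrasts; up to 4 called members per list with the smallest p, up to 2 in the opposite direction and up to 3 called against Apc; and any member of a count of 5 or fewer. Genes named as the ends of a list's range were chosen after their values were seen. The text shows a part of the genes this rule gives, and some are not reported here. Promoter windows were RefSeq sequences of 250 bases before and 50 after each start, with those on chr18 left out. Alternatives were other scaling, filters, tools, library subsets and a replicate block.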

Additional observations from a re-analysis of the deposited data

Results flagged for a closer look

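The following levels, in CPM, lay far from the other 3 libraries of their group: the gap to the nearest library, divided by the range, was above Dixon's 95% critical value for 4 samples. Of 192 groups of 4 examined, 18 met this, and chance gives about 1 in 20. The groups cover a part of the genes shown with their levels, and the ribosomal and mitochondrial shares of counts. Other genes shown, Cyp2b10, Mycl and Eda2r among them, were not examined, so the 18 is not a count over all genes shown. Apc Eif3h replicate 3 accounted for 7 of them. It was lowest in Phgdh at 21.2 (36.0 to 38.1 in the others) and highest in Msx1 at 35.6 (16.0 to 17.4), Cited1 at 15.3 (4.35 to 5.67), Gsdmc4 at 4.28 (0.0619 to 0.334), Ace at 714 (290.4 to 323), Gzma at 42.1 (31.4 to 32.2) and B2m at 1643 (1080 to 1170). The same library had the highest Eif3h level of its group and lay nearest to WT on the first principal component, and the part of either in these values was not tested.

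Apc Eif3h replicate 2 was far above its group in Cd79a, at 83.8 CPM against 1.68 to 1.87 in the others. Apc Eif3h replicate 1 was high in Slc10a2 at 17.1 (2.79 to 5.14) and low in Alox5 at 1.07 (1.67 to 1.74). In WT, replicate 1 was high in Igha at 15730 (3817 to 5386), in Cd79a at 13.2 (3.83 to 5.19) and in Alox5 at 5.81 (4.27 to 4.53), replicate 3 was high in Gsdmc4 at 62.0 (12.5 to 19.3), and replicate 2 had 0 for Cited1 (0.155 to 0.166). In Apc, replicate 4 was high in Cybrd1 at 418 (51.8 to 96.0) and in Ada at 379 (192 to 207), and replicate 3 was high in Fgfrl1 at 46.6 (41.7 to 42.0).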

How the results depend on the processing

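Genotype and day cannot be told apart, and Apc Eif3h held no female. With library totals in place of TMM scaling, 3175 genes were lower than WT and 6605 higher, so that 67.5% of calls were higher against 51.5%, with a median log2 fold change of 0.17. Under the same scaling, 485 genes were higher than Apc. Leaving out 1 library in turn gave 8949 to 10168 calls against WT (4774 to 5345 higher and 4150 to 4993 lower) and 406 to 1767 against Apc (242 to 1152 higher and 164 to 615 lower). Other scaling, filters, tools, the 8 libraries alone or males only (8993 calls) kept the counts against WT within 1.5 times. No named gene that was called against WT or Apc changed direction under any alternative run.

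Of 277 named genes, 260 were called against WT, and 236 of those kept the call in all 16 alternatives. Of 17 not called, 11 were called in at least 1 alternative. Against Apc, 35 of 85 kept the call in all 12. DESeq2 called 1793 genes against Apc, compared with 1226. Shared replicate numbers are not stated to mark a shared animal, litter or day, and the deviations of same-numbered WT and Apc Eif3h libraries correlated at -0.104 to 0.19, with 1 of 4 pairs over 0.1, so the numbers were not taken to pair the samples. With a replicate block, 9853 genes were called against WT (5049 higher and 4804 lower) and 993 against Apc (594 higher and 399 lower). Low totals limit the genes near silence in WT, where a few counts decide a ratio.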

Other observations

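Genes linked to a fetal-like or YAP-driven state of the epithelium were higher than in WT in 9 and lower in 7 of 25 tested of 28 listed (median log2 fold change 0.13), shares near those of all genes. Areg encodes an EGF receptor ligand. Its level was 12.8, 8.97, 11.2 and 9.8 CPM in WT, 38.5, 28.1, 36.3 and 54.8 CPM in Apc and 72.4, 62.9, 50.1 and 76.4 CPM in Apc Eif3h (log2 change 2.61 ± 0.21, adjusted p = 3.95e-06 against WT and 0.73 ± 0.19, adjusted p = 0.038 against Apc). Krt7, a keratin uncommon in intestine, was at 59.4, 62.3, 69.4 and 60.9 CPM in WT and 260.5, 196, 199.6 and 245 CPM in Apc Eif3h (log2 change 1.84 ± 0.12, adjusted p = 2.19e-06). The annexins, named after their values were seen, split, with Anxa3 higher (0.97) and Anxa1 (-0.82) and Anxa8 (-2.10) lower, at 2.79, 4.2, 7.07 and 8.07 CPM in WT and 1.34, 0.557, 1.99 and 1.25 CPM in Apc Eif3h for the latter. Ly6a (Sca-1), a marker of the regenerating epithelium named after its value was seen, was not called (-0.11, SE 0.37). Against Apc 4 of the 25 were higher, Areg, Krt7, Birc2 and Il33, a count that ran from 0 to 5 over the alternatives, with the call of Areg lost in 7 of 12 and that of Krt7 in 8.

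Of 15 immediate early genes 5 were higher than in WT and 3 lower (median log2 fold change 0.11). The share higher was near that of all genes (29.8%), and the share lower was below that of all genes (28.1%). Egr1 was at 13.8, 9.76, 18.7 and 7.74 CPM in WT and 28.5, 37.7, 35.4 and 31.3 CPM in Apc Eif3h (log2 change 1.41 ± 0.25, adjusted p = 0.000455), while Zfp36, which speeds decay of inflammatory mRNAs, fell by 0.77 on the log2 scale. Haemoglobin genes, a sign of blood, showed 0 of 4 called by edgeR or DESeq2 and 0 at an unadjusted p below 0.05. Pancreatic acinar genes had 1 of 11 listed members abundant enough to test, Cela1, which was not called (log2 change -0.10, SE 0.17) at 9.4 to 11.8 CPM in WT and 8.29 to 11.7 CPM in Apc Eif3h. Mast cell genes had 3 of 9 members tested, and Kit, which is not particular to mast cells, was the 1 called lower (-0.47).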
